A study of Mus musculus with 2 samples.

Results

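Trp63, Snai2, Myocd, Mef2c, Tbx2, Zeb1 and Twist2 encode 7 transcription factors that are associated with basal (myoepithelial) identity in the mammary gland. They were taken by symbol from the 27998 genes listed for each library, and all 7 were listed as protein-coding genes in the GENCODE annotation. The counts are unique molecular identifiers (UMIs), so that each count stands for 1 captured RNA molecule. Trp63, Mef2c and Snai2 were counted in the basal cells of the unsorted epithelium at 42.1 to 158 times the level of the higher luminal class. Each of these luminal levels rests on 3 counts or fewer, and with class thresholds of 20 counts the ratios were 19.1 to 22.3. Mef2c was higher still in the 11 cells classed as vascular, at 661 CPM (counts per 1000000 UMIs) against 58.5 in basal cells. Tbx2 and Twist2 gave about 10 basal counts each, and Zeb1 and Myocd gave 3 counts or fewer.

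The mammary epithelium is a bilayer, with contractile basal cells on the outside and luminal cells lining the duct. p63, the product of Trp63, maintains basal keratin expression and the anchorage of stratified and glandular epithelia to the basement membrane. Slug (Snai2), Zeb1 and Twist2 repress epithelial junction genes and are known from epithelial-mesenchymal transition, and Tbx2 is a T-box transcriptional repressor. Myocardin (Myocd) is a coactivator of serum response factor (SRF) and Mef2c a MADS-box factor, and both drive smooth muscle genes.

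Mammary glands of adult FVB/NJ mice, with no treatment, were profiled on the 10X Chromium 3' platform from 2 cell preparations, with 8 mice in the series and the cells of several mice pooled for each sort. The "sorted basal" library held 4771 cells of the Lin-CD29hiCD24+ gate, and the "total epithelium" library held 3302 cells of the Lin-CD24+ gate. The medians were 487 and 2426 UMIs per cell. There was 1 library for each preparation, so no difference between libraries or classes has a replicate check, and all intervals below are exact 95% limits that cover counting error only.

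Cells of the total epithelium were assigned to classes from genes that are not among the 7 factors. Cells with 10 or more summed counts of Krt5, Krt14 and Acta2 were basal, cells with 10 or more of Prlr, Stc2 and Gpx3 were mature luminal (ML), and other cells with 3 or more of Krt8, Krt18 and Krt19 were luminal progenitor (LP). This gave 1280 basal, 766 LP and 1133 ML cells, with medians of 1820, 2484 and 3403 UMIs. A further 26 cells passed both the basal and the ML rule and were kept apart. The remainder comprised 18 collagen cells (10 or more counts of Col1a1, Col1a2, Col3a1 and Dcn), 11 vascular cells (3 or more of Pecam1, Cdh5, Emcn and Rgs5) and 68 cells of no class, which was 2.06% of the library. Collagen and vascular cells were sought only among cells that the rule left over. Of the ML cells, 135 also held 10 or more counts of Col1a1, Col1a2, Col3a1 and Dcn. In 12 ML cells the first 3 of these genes had 5 or more counts.

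The labels were checked on markers that the rule did not use. The 6 such basal markers summed to 16667 counts per 1000000 UMIs (CPM) in basal cells, against 123 CPM in LP and 47.9 CPM in ML cells. The 7 LP markers summed to 15896 CPM in LP, 2128 in basal and 1556 in ML cells, and the 7 ML markers to 4615 CPM in ML, 386 in LP and 42.6 in basal cells. Each of these markers was highest in its own class. Near the basal threshold, 36 cells held 5 to 9 counts of its 3 genes and 114 held 10 to 19, and near the ML threshold 90 cells held 5 to 9 and 229 held 10 to 19. In the sorted library, 81.3% of cells held 3 or more of these counts without 3 collagen gene counts, 70 cells held luminal keratins without them, and 108 held 3 or more collagen gene counts. The libraries had 28 cell barcodes in common, and these cells held 2 counts of the factors in the total epithelium for Trp63 and Snai2 together, 1 Mef2c count in each library and none of the other factors. Without them the basal to luminal ratios given below were 157 for Trp63, 55.0 for Snai2, 41.5 for Mef2c, 8.55 for Twist2 and at least 2.43 for Tbx2, and the sorted to unsorted ratios 1.41, 0.47, 1.54, 0.19 and 2.48, with 4.61 for Zeb1.

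Promoter sequence could be set beside the counts for Mef2c, for the class genes Krt5 and Krt14, textbook p63 targets, and Acta2, a textbook target of SRF and myocardin, and for the smooth muscle gene Cnn1. The RefSeq table of start sites (GRCm38.p6) matched Mef2c and Twist2 among the factors, and Mef2c had 3 start sites whose transcripts share one 3' count. The 250 bases before each start are shown, 5' to 3' in the direction of the gene. Capitals mark matches on either strand to the p53-family half-site, the CArG-like box bound by SRF, the E-box CAGGTG, the TEAD motif CATTCC and the AP-1 motif TGANTCA.
Mef2c start 1, chr13:83503784-83504033 (+ strand): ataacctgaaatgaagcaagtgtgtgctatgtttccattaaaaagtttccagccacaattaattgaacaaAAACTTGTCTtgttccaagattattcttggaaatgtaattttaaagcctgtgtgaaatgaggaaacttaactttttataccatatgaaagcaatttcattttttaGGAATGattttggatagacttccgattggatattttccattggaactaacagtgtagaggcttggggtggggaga
Mef2c start 2, chr13:83523406-83523655 (+ strand): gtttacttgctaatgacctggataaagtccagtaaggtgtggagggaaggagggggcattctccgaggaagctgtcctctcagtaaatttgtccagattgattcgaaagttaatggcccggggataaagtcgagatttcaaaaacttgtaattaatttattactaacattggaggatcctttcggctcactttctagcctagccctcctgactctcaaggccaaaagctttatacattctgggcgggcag
Mef2c start 3, chr13:83573357-83573606 (+ strand): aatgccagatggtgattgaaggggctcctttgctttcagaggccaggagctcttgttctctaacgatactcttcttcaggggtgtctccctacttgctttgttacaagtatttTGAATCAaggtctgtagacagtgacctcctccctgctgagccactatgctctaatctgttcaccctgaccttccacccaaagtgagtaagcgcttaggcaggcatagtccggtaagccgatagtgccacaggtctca
Krt5, chr15:101712906-101713155 (- strand): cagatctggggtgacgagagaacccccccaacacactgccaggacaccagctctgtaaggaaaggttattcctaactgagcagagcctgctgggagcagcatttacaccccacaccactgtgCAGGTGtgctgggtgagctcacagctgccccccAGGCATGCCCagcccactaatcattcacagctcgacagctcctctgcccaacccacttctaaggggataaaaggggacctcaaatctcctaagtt
Krt14, chr11:100206031-100206280 (- strand): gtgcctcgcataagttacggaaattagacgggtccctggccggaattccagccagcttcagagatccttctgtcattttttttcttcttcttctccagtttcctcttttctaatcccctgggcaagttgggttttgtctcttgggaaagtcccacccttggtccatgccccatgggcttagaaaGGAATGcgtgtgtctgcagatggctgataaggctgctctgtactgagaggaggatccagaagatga
Acta2, chr19:34255374-34255623 (- strand): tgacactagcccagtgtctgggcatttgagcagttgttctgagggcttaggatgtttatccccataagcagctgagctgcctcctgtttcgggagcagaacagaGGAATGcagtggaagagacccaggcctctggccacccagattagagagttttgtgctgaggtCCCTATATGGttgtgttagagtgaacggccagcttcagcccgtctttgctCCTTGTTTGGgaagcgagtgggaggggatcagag
Cnn1, chr9:22099003-22099252 (+ strand): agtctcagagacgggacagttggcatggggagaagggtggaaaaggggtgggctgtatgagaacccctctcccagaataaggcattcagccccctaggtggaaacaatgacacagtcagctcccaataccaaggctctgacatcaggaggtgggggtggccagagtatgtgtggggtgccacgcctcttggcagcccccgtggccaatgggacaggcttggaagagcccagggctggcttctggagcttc

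Start 1 of Mef2c had a p53-family half-site from position -180 and a TEAD motif from -75, counted back from the start, while start 2 had no match and start 3 had an AP-1 motif from -137. Krt5 carried CAGGTG from -128 and a p53-family half-site from -95. Acta2 carried CArG-like boxes from -84 and -34 and a TEAD motif from -146. Krt14 carried a TEAD motif from -66 and no p53-family half-site, and Cnn1 none of the motifs. Of 32851 promoters of the same length, 7.13% held the half-site, 8.59% a CArG-like box, 17.2% CAGGTG, 12.6% the TEAD motif and 6.75% the AP-1 motif. Twist2 held none of the 5. A match describes letters in the window and no binding was measured.

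Trp63 (ENSMUSG00000022510, chr16:25683763-25892102, + strand, GRCm38) gave 203 counts in basal cells, 1 in LP cells and 2 in ML cells. The levels were 76.6 CPM in basal cells (66.4 to 87.8), 0.46 in LP cells (0.012 to 2.58) and 0.48 in ML cells (0.059 to 1.75). Basal cells stood 158-fold above ML cells, the higher luminal class (43.2 to 1315). With class thresholds of 20 counts the ratio was 22.1, since 10 Trp63 counts then lay in LP cells. The 3 luminal cells with a Trp63 count each held 50 or more luminal keratin counts and at most 1 count of the basal genes. The 3' counts cannot separate the TA and delta-N isoforms of p63.

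Trp63 was detected in 152 of 1280 basal cells, or 11.9% (10.2 to 13.8). Most of these cells held 1 count, 29 held 2 or more, and 1 cell of 1560 UMIs held 11. Leaving that cell out changed the basal level from 76.6 to 72.4 CPM.

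Snai2 (ENSMUSG00000022676, chr16:14705852-14709385, + strand), which encodes Slug, gave 69 counts in basal cells, 1 in LP cells and 0 in ML cells. These were 26.0 CPM (20.2 to 32.9), 0.46 CPM and, for ML, at most 0.89 CPM. The ratio of basal to LP cells was 56.2 with a wide interval (9.75 to 2250.2), because it rests on 1 LP count, and with an LP threshold of 10 keratin counts it was at least 18.4. With class thresholds of 20 counts it was 19.1, and as the mean of CPM per cell 22.5. The LP cell in question held 8 counts of the basal genes and 4 of the luminal keratins. Snai2 was detected in 4.30% of basal cells (3.25 to 5.56).

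Mef2c (ENSMUSG00000005583, chr13:83504034-83667080, + strand) gave 155 counts in basal cells, 3 in LP cells and 3 in ML cells. The levels were 58.5 CPM (49.6 to 68.4), 1.39 (0.29 to 4.06) and 0.73 (0.15 to 2.12). Basal cells stood 42.1-fold above LP cells, the higher luminal class (14.1 to 206). With class thresholds of 20 counts the ratio to the higher luminal class was 22.3. As the mean of CPM per cell ML was the higher luminal class, and the ratio to ML was 76.8. Mef2c was detected in 9.22% of basal cells (7.69 to 10.9).

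The few luminal Mef2c counts lay partly in cells with markers of other types. Both LP cells with Mef2c held many counts of Des, the muscle intermediate filament desmin (39 and 53). Of the 3 ML cells, 1 held 33 counts of the collagen genes Col1a1, Col1a2 and Col3a1 and no luminal keratin. Without stromal cells the ratio to LP cells was 42.4. An LP threshold of 10 keratin counts drops the LP cell with 53 Des counts. The higher luminal class was then ML, and the ratio to ML was 80.5.

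Twist2 (ENSMUSG00000007805, chr1:91801461-91848028, + strand) gave 11 basal counts in 11 cells, 0 LP counts and 2 ML counts. The basal level was 4.15 CPM (2.07 to 7.42) and the ML level 0.48 CPM (0.059 to 1.75), a ratio of 8.57 (1.87 to 79.6). Both ML counts came from a single cell with 53 collagen counts and no luminal keratin, which had passed the ML rule. With collagen and vascular cells removed, Twist2 had 0 luminal counts and was at least 3.01-fold higher in basal cells.

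Tbx2 (ENSMUSG00000000093, chr11:85832551-85841948, + strand) gave 9 counts in 9 basal cells and none in LP or ML cells. Its basal level was 3.39 CPM (1.55 to 6.44), at least 2.44-fold above the luminal classes when a floor of 3 counts was set for LP. One further Tbx2 count lay in a cell that passed both the basal and the ML rule.

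Zeb1 (ENSMUSG00000024238) gave 3 counts in 3 basal cells, which was 1.13 CPM (0.23 to 3.31), and 0 in both luminal classes. Myocd (ENSMUSG00000020542, chr11:65176561-65269989, - strand) gave 1 count in the whole library, in a basal cell. At 3 counts or fewer no fold was formed for these 2 genes. A share of up to 0.29% of basal cells with a UMI is what a count of 0 would allow, and the 0.078% for Myocd and 0.23% for Zeb1 lie under it.

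**Figure D1:**
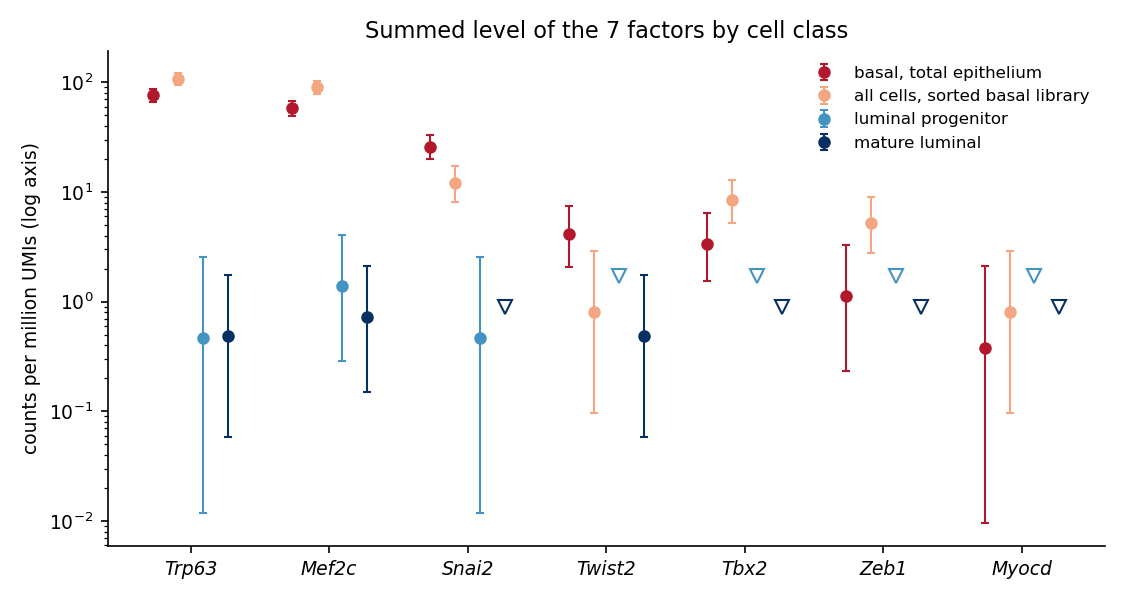
Summed CPM (log axis) of each factor in basal, luminal progenitor and mature luminal cells of the total epithelium and in all cells of the sorted basal library. Bars are exact 95% Poisson limits and open triangles the upper limit where the count was 0; Trp63, Mef2c and Snai2 lie between 26.0 and 76.6 CPM in basal cells and at or under 1.39 CPM in both luminal classes.

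Among 10817 genes with 20 or more counts over the basal, LP and ML cells, 6.83% were 4-fold or more above both luminal classes in basal cells. Trp63, Snai2 and Mef2c had enough counts, and all 3 passed this fold. They had 20 counts only through their basal cells, so their number carries no weight of its own. The fold of Trp63 exceeded that of 99.8% of these genes, that of Snai2 99.3% and that of Mef2c 99.0%. Tbx2 (9 counts), Twist2 (13), Zeb1 (3) and Myocd (1) did not reach 20 counts.

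The classes differed in depth, so each cell was thinned to 800 UMIs, below the shallowest cell of the library. Trp63 was then seen in 62 of 1280 basal cells (4.84%, 3.73 to 6.17), in 0 of 766 LP cells, which allows up to 0.48%, and in 1 of 1133 ML cells (0.088%). Mef2c was seen in 57 basal cells (4.45%, 3.39 to 5.73) and in 1 LP and 1 ML cell. Snai2 was seen in 26 basal cells (2.03%, 1.33 to 2.96), in 1 LP cell and in no ML cell. For these 3 genes the basal intervals lie above the luminal ones. Free RNA in the droplets was not measured, and its part in the luminal counts was not tested. For Twist2 (5 basal cells), Tbx2 (4), Zeb1 (1) and Myocd (1) the basal and luminal intervals overlap at this depth.

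**Figure D2:**
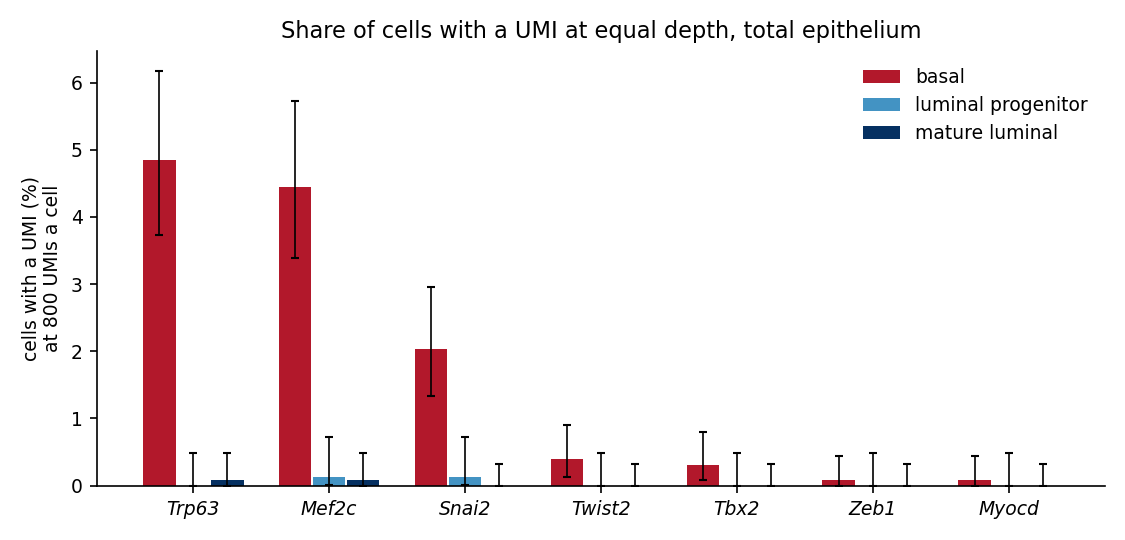
Percentage of basal, luminal progenitor and mature luminal cells with at least 1 UMI of each factor after every cell was thinned to 800 UMIs, with exact 95% binomial limits. Trp63 reached 4.84%, Mef2c 4.45% and Snai2 2.03% of basal cells, and no luminal bar exceeds 0.13%.

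Detection in basal cells followed depth. Basal cells were split by total count into 3 near-equal groups (shallow, middle and deep), with medians of 1233, 1818 and 2832 UMIs. Trp63 was seen in 6.35%, 10.7% and 18.5% of these cells, and Snai2 in 2.59%, 3.50% and 6.79%. The level of Snai2 varied less, at 22.9, 23.0 and 29.0 CPM with overlapping intervals. Mef2c was seen in more of the deeper cells (6.82%, 8.64% and 12.2%), while its level was 76.5 CPM (54.6 to 104) in the shallow and 47.5 CPM (36.6 to 60.7) in the deep group. Trp63 had its highest level in the middle group, at 97.2 CPM (76.6 to 122) against 53.5 (35.6 to 77.4) in the shallow group, and the cell with 11 counts lies in the middle group.

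Each factor was detected in a minority of basal cells, and few cells held more than 1. The number of cells with more than 1 factor was not set against that given by independent detection. At the deposited depth, 317 of 1280 basal cells (24.8%, 22.4 to 27.2) held a count of at least 1 of the 7, 30 held 2 different factors and 1 held 3. In LP cells 4 of 766 (0.52%) and in ML cells 6 of 1133 (0.53%) held any. At 800 UMIs the basal share was 12.0% and 3 basal cells held 2 factors. No cell held both Trp63 and Snai2 at that depth, against 2.13% of Trp63-free cells with Snai2, but 0 of 62 allows up to 5.78%. Mef2c was seen in 1 of the 62 Trp63 cells (1.61%, 0.041 to 8.66) and in 4.60% of the others (3.49 to 5.93). These intervals overlap, so no exclusion or joint use of the factors was detectable at this depth.

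Basal cells with and without a factor's count at 800 UMIs were compared over lists of related genes. Krt5, Krt14 and Acta2 define the basal class, so counts of these genes were set by the rule in both groups. The 21 listed p63-associated genes in the files, Krt5 and Krt14 included, summed to 24899 CPM in the 62 cells with Trp63 and 27177 CPM in the 1218 without (ratio 0.92, 0.86 to 0.97). The 18 smooth muscle genes, Acta2 included, summed to 32923 CPM with Trp63 and 40014 without (ratio 0.82, 0.78 to 0.86). In the 26 cells with Snai2 the smooth muscle genes were at 0.87 (0.81 to 0.94), the p63-associated genes at 0.88 (0.81 to 0.97) and the junction genes at 0.99 (0.67 to 1.41) of their level in the other cells. In the 57 cells with Mef2c the smooth muscle genes summed to 43136 CPM, against 39509 in the others (ratio 1.09, 1.04 to 1.14), though Cnn1 was at 2873 against 3485, and the p63-associated genes were at 0.86 of the level in the others (0.81 to 0.92). Epithelial junction genes summed to 943 CPM with Mef2c and 1528 without, mostly Epcam (658 and 1079 CPM). Cells of 1 library are not replicates and vary by more than counting error, so these are descriptions of the sampled cells.

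Outside the 3 main classes, Mef2c was the factor with most counts. It gave 11 counts in 5 of 11 vascular cells, 661 CPM (330 to 1182) and 11.3 times the basal level (5.53 to 20.8). The cells of no class gave 27 counts in 16 of 68 cells, 255 CPM and 4.36 times the basal level (2.79 to 6.60). The 18 collagen cells gave 5 counts, 134 CPM and 2.29 times the basal level (0.73 to 5.45), an interval that includes 1. With a collagen threshold of 20 counts the ratio was 1.07, and without the cell of most counts the level was 85.2 CPM.

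The vascular cells counted 7 of 8 endothelial markers, summed to 8648 CPM against 8.30 in basal cells, and 7 of 8 pericyte markers. These lists include Pecam1, Cdh5, Emcn and Rgs5, which define the class, so the values are no separate check of it. Of the 16 cells of no class with Mef2c, 6 held 5 to 9 counts of the basal genes, 5 held 20 or more of Des and 3 held 5 or more of the endothelial markers. Of all 8 cells with 20 or more Des counts, 7 held Mef2c. Mef2c is known from endothelial and striated muscle cells as well as from smooth muscle. Its summed level over the whole library pools basal, vascular and Des-rich cells. Des is also on the list of pericyte markers, and the type of the Des-rich cells was not tested.

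Trp63 had no count in collagen or vascular cells, but the small number of cells leaves the upper limits at 98.5 and 222 CPM, above its basal level. The 2 Trp63 counts in cells of no class were in cells with 7 counts of the basal genes, just under the threshold. Snai2 and Tbx2 had no count in collagen, vascular or unclassed cells. Twist2 gave 1 count in a collagen cell, which is 26.7 CPM (0.68 to 149) and 6.44 times the basal level with an interval from 0.15 to 44.3. Zeb1 gave 1 count in a cell of no class. In the 26 cells that passed both the basal and the ML rule, Trp63 was at 16.1 CPM (1.95 to 58.1), Mef2c at 32.1 CPM (8.76 to 82.3) and Snai2 at 8.04 CPM (0.20 to 44.8).

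**Figure D3:**
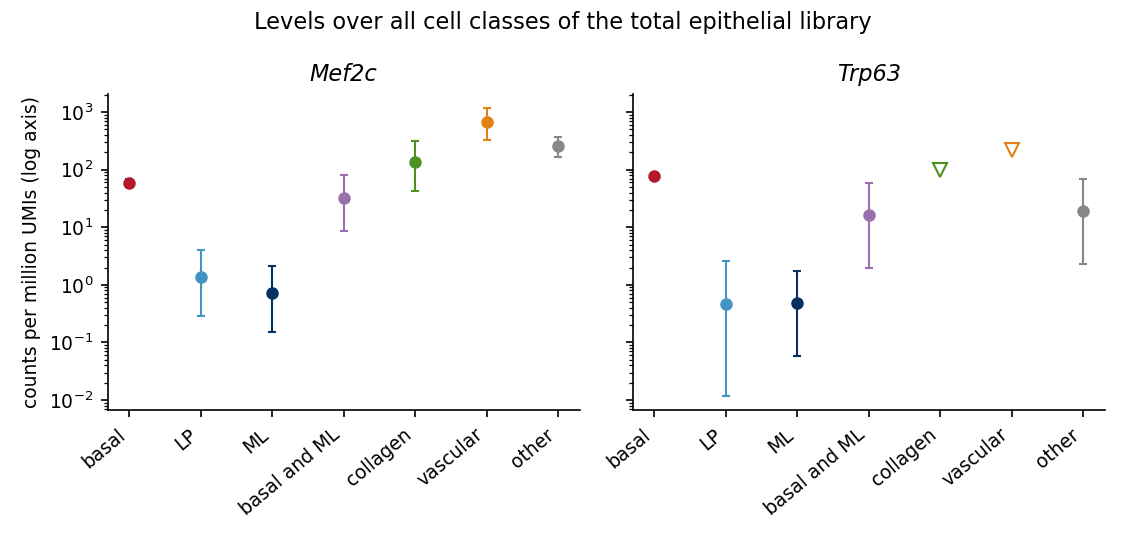
CPM (log axis) of Mef2c and Trp63 in each class of the total epithelial library, with exact 95% Poisson limits and open triangles at the upper limit where the count was 0. Mef2c was at 661 CPM in vascular cells and 58.5 CPM in basal cells, while Trp63 was at 76.6 CPM in basal cells and had no count in collagen or vascular cells.

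In the sorted basal library Trp63 gave 268 counts in 216 of 4771 cells and Mef2c 224 counts in 144 cells. Trp63 was at 108 CPM (95.2 to 121), against 76.6 CPM in unsorted basal cells, a ratio of 1.41 (1.17 to 1.70). Mef2c was at 90.0 CPM (78.6 to 103) against 58.5, a ratio of 1.54 (1.25 to 1.90). Of the 216 cells with Trp63, 189 held 3 or more counts of Krt5, Krt14 and Acta2, and 23 held 3 or more luminal keratin counts.

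Snai2 gave 30 counts in 23 sorted cells, 12.1 CPM (8.13 to 17.2) against 26.0 in unsorted basal cells, a ratio of 0.46 (0.29 to 0.72). Tbx2 gave 21 counts in 19 cells, 8.44 CPM (5.22 to 12.9) against 3.39, a ratio of 2.49 (1.09 to 6.17). Twist2 gave 2 counts, both in 1 cell, and 0.80 CPM against 4.15, a ratio of 0.19 (0.021 to 0.89).

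Zeb1 gave 13 counts in 6 cells, 5.22 CPM against 1.13, a ratio of 4.62 (1.27 to 25.3). In the 3880 sorted cells with basal keratins and without collagens Zeb1 gave 2 counts, 0.93 CPM (0.11 to 3.36). The unsorted basal level was 1.13 CPM (0.23 to 3.31), so no difference shows there. Of the 13 counts, 6 came from 1 cell of 215 UMIs and 3 from a cell with 26 collagen counts and none of the basal genes. Myocd gave 2 counts in 1 cell of 868 UMIs, and no ratio was formed.

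The libraries differed as a whole. The median ratio of sorted to unsorted basal level over 10114 genes was 1.39, which is 0.47 on the log2 scale. Relative to that median Trp63 stood at 1.02, Mef2c at 1.11, Tbx2 at 1.79 and Snai2 at 0.33. Of these genes 15.4% were 2-fold or more lower and 29.1% 2-fold or more higher in the sorted library, and with Snai2 lower, Tbx2 higher and Trp63 and Mef2c neither, the 4 factors with enough counts were 1 lower and 1 higher.

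The ratio also moved with transcript length. By longest annotated transcript, genes of 1000 to 2000 bases had a median ratio of 0.53, those of 2000 to 3000 bases 1.39 and those of 3000 to 4000 bases 2.03. Snai2, at 2021 bases, lies at the short end of its bin and was higher there than 7.17% of genes. Trp63, at 5366 bases, was above 29.6% of genes of 4000 to 6000 bases, Mef2c, at 6277 bases, above 48.6% of those of 6000 or more, and Tbx2, at 3626 bases, above 64.9% of its bin. The part of transcript length in the difference was not tested, and with 1 library a preparation the gate and the library cannot be told apart. Among genes used for the classes, Acta2 was at 7773 CPM in the sorted and 19099 CPM in the unsorted basal cells, and Krt5 at 1042 and 727 CPM.

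At 200 UMIs a cell, which left out 425 sorted cells, Trp63 was seen in 2.0% of sorted cells (1.61 to 2.46) and 1.72% of unsorted basal cells (1.08 to 2.59). Mef2c was seen in 1.5% (1.16 to 1.90) and 0.94% (0.49 to 1.63). Snai2 was seen in 0.37% (0.21 to 0.60) and 0.39% (0.13 to 0.91). Tbx2 was seen in 8 sorted and 2 unsorted basal cells, a ratio of shares of 1.18. The intervals overlap for each gene, and at 5 unsorted cells with Snai2 the depth could not show its difference in CPM. Without thinning the shares were 4.53%, 3.02% and 0.48% in the sorted library.

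**Figure D4:**
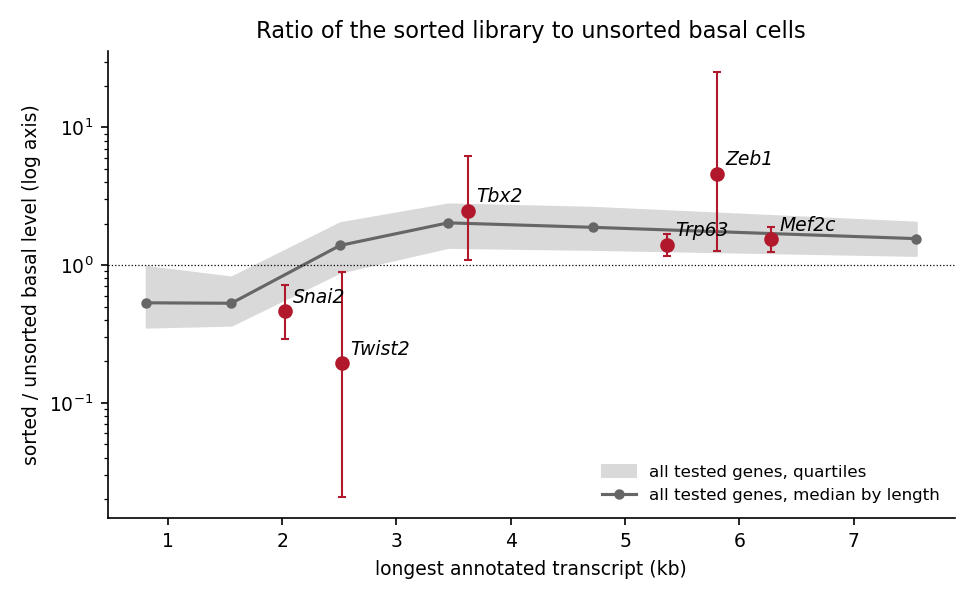
Ratio of the level in the sorted basal library to that in unsorted basal cells (log axis) against the longest annotated transcript in kilobases. Red points are the factors with exact 95% limits, and the grey line and band are the median and quartiles over 10104 genes by length. Snai2 (0.46) and Twist2 (0.19) lie below the band, with Trp63 (1.41) and Mef2c (1.54) within it and Zeb1 (4.62, from 6 cells of which 4 were not basal-keratin cells) above it.

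The close relatives of the factors that had 20 or more counts were all counted in luminal as well as basal cells. Of 17 relatives and cofactors, 8 had 20 or more counts over the 3 classes, and none of the 8 was 4-fold or more above both luminal classes (6.83% of all genes). Their median log2 ratio of basal to pooled luminal level was 0.71, against 0.0036 over all genes. Trp53, the p53 gene, gave 252, 140 and 146 CPM over basal, LP and ML cells. Trp73, which encodes p73, gave 16 counts in basal cells and none in luminal cells, at least 12.7-fold higher against pooled luminal cells at a floor of 3 counts.

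Snai1 was spread over all classes, at 6.41, 8.34 and 4.11 CPM over basal, LP and ML cells, and Snai3 gave 1 basal and 1 ML count. Mef2a (43.7, 26.4 and 17.2 CPM) and Mef2d (21.9, 21.3 and 10.6 CPM) were counted in every class, and Mef2b was at 0 throughout. Tbx3, a T-box gene of the hormone-sensing lineage, was at its highest in ML cells, at 7.54, 2.78 and 24.2 CPM over basal, LP and ML cells. Tbx5 gave 3 basal counts, Tbx18 gave 1 basal and 2 ML counts, and Tbx1 and Tbx4 had none.

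Serum response factor and its other cofactors were present where Myocd was near the detection limit. Srf was at 29.4, 8.80 and 11.9 CPM over basal, LP and ML cells, a ratio of 2.72 to pooled luminal cells (1.94 to 3.82). Mkl1, a myocardin-related cofactor, was at 15.5, 3.24 and 7.02 CPM (ratio 2.70, 1.68 to 4.35). Mkl2 was at 6.79, 6.49 and 7.74 CPM (ratio 0.93, 0.51 to 1.63). Zeb2 gave 2 basal counts and 0 luminal counts, with 21 counts in the sorted library, and Twist1 gave none in the 3 classes and 2 in the sorted library.

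**Figure D5:**
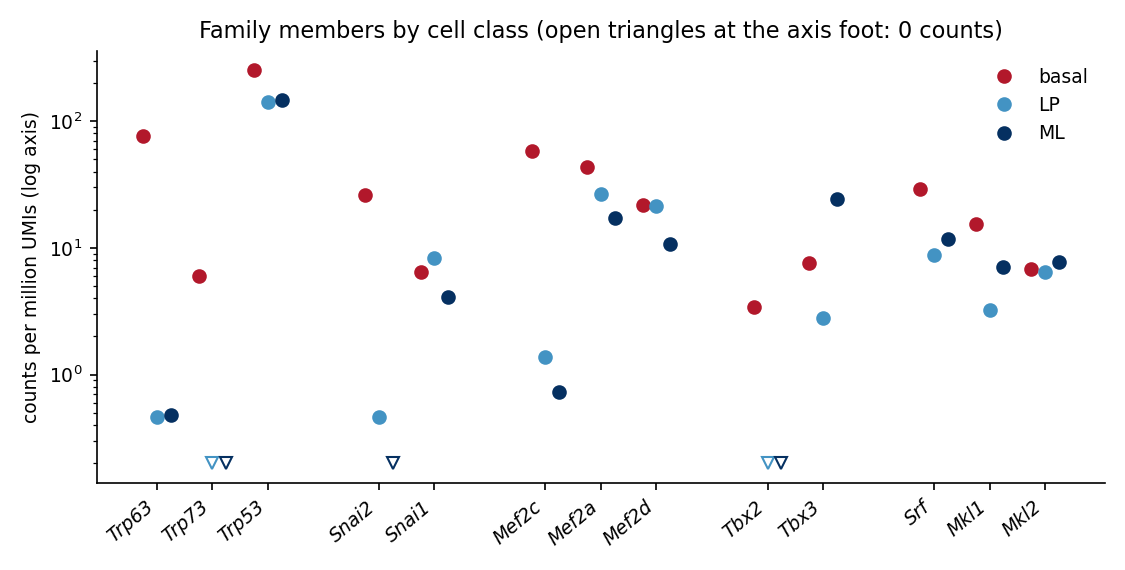
CPM (log axis) of the factors with counted relatives, and of SRF and its cofactors, in basal, LP and ML cells, with open triangles at the foot where the count was 0. Trp63, Snai2 and Mef2c are widely separated between basal and luminal cells, with Mef2c at 58.5, 1.39 and 0.73 CPM over basal, LP and ML cells. The points of Trp53, Snai1, Mef2a, Mef2d and Mkl2 lie closer together, with Mef2a at 43.7, 26.4 and 17.2 CPM.

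Genes associated with p63 or with smooth muscle were counted by list, leaving out Krt5, Krt14 and Acta2, which define the basal class. Regulation of the listed genes by the factors was not tested. Of 17 p63-associated genes with 20 or more counts, 9 were 4-fold or more above both luminal classes (6.83% of all genes) and none was as far below (3.89%), with a median log2 ratio of 2.69. Krt17, a basal keratin, was 217-fold above pooled luminal cells (187 to 253), Col17a1, a hemidesmosome collagen, 93.2-fold (44.6 to 234), Bmp7 47.2-fold (24.3 to 105) and Igfbp3 28.7-fold (22.9 to 36.6).

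Of 17 smooth muscle genes, 14 passed the 4-fold level (6.83% of all genes) and none was as far below (3.89%), with a median log2 ratio of 5.82. Actg2, the enteric smooth muscle actin, was 562-fold above pooled luminal cells (192 to 2733), Myl9 393-fold (293 to 539), Mylk, the myosin light chain kinase, 305-fold (170 to 613) and Cnn1, calponin, 278-fold (223 to 350). Myocd itself gave 1 count in the same 1280 cells.

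The factors linked to epithelial-mesenchymal transition were set beside junction and mesenchymal genes. Of 17 epithelial junction genes, 7 were 4-fold or more below both luminal classes in basal cells (3.89% of all genes), 2 were as far above (6.83%), and the median log2 ratio was -1.89. Cldn4, a claudin, was 27.1-fold higher in pooled luminal cells (23.8 to 31.0), Ocln, occludin, 23.8-fold (13.2 to 47.9) and Cldn7 17.5-fold (14.7 to 21.0). Cdh3, the basal P-cadherin, was 48.6-fold higher in basal cells (18.3 to 183). Of 8 mesenchymal genes with enough counts, 6 were 4-fold or more above both luminal classes (6.83% of all genes), with a median log2 ratio of 3.99. Sparc, a matrix glycoprotein, was 57.8-fold higher (50.3 to 66.7), Mmp2 45.1-fold (30.2 to 70.4), Vim, vimentin, 27.2-fold (23.3 to 31.9) and Axl 20.9-fold (14.6 to 31.0).

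Of 14 luminal transcription factors, 3 were 4-fold or more below both luminal classes in basal cells (3.89% of all genes) and none was as far above (6.83%), with a median log2 ratio of -2.59. Cited1 was 162-fold higher in pooled luminal cells (98.0 to 289), Foxa1, a partner of the oestrogen receptor, 22.8-fold (9.63 to 70.7), Ehf 13.0-fold (7.90 to 22.9) and Pgr, the progesterone receptor, 11.6-fold (6.0 to 25.6).

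Likeness of pattern was measured as Pearson's r of ln(1 + counts per 10000) over the 3302 cells of the total epithelium, among 9651 genes counted in at least 1% of cells. Trp63 was most like Acta2 (0.25), Cxcl14 (0.25) and Krt14 (0.25), and Snai2 most like Acta2 (0.15), Tagln (0.15) and Cxcl14 (0.15). Mef2c was most like Sparcl1 (0.39), Sncg (0.33) and Gja4 (0.33). Twist2 was most like Tnfaip6 (0.17), Col1a1 (0.16) and Col3a1 (0.15), over 14 cells with a count. The leading genes of Tbx2 (Rusc2, Ntf3 and Casp8ap2), Zeb1 (Nrip2, Rgs4 and Mustn1) and Myocd (Lmcd1, Atp1b2 and Ankrd29) rest on 10, 4 and 1 cells with a count. The cells share a library, a depth range and the split into lineages, and correlations this weak in sparse counts are descriptions.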

How the data were processed

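The deposited files of both libraries hold raw UMI counts per gene and cell. Per the labels the authors used Cell Ranger 1.2.1 and mm10, while the study's methods name a later release. The study's supplement gives cell numbers after a filter on low-coverage cells. For these libraries they differ slightly from the deposited numbers. Counts were summed per class and divided by the class total (CPM), with exact Poisson, Clopper-Pearson and conditional binomial limits (python 3.11.15, numpy 2.4.6, scipy 1.17.1, pandas 2.3.3). Cells were thinned by seeded sampling without replacement. No cell was filtered and no doublet caller was run; the 26 cells passing both the basal and ML rule were kept apart. The libraries shared 28 barcodes (0.59% and 0.85% of their cells). The fold call was also run on simulated counts with planted changes above its 4-fold level. Those counts had no variation between cells, so the run does not check the call for these data. Gene positions and transcript lengths came from GENCODE vM21.

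All 7 factors are described, every relative is given, and up to 4 genes of each other list were named by the largest log2 ratio of basal to pooled luminal level. The members and lists were chosen with earlier results of these data known. Alternatives covered class thresholds, stromal cells, library totals, depth, repeated counts in a cell and shared barcodes.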

Additional observations from a re-analysis of the deposited data

How the results depend on the processing

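Of the ratios of basal to luminal level, those of Trp63, Snai2, Mef2c, Tbx2 and Twist2 stayed above 1 under all 11 alternatives, over 22.1 to 179 for Trp63, 16.7 to 60.9 for Snai2, 22.3 to 80.5 for Mef2c, 2.15 to 3.43 for Tbx2 and 2.98 to 17.1 for Twist2, where the values for Tbx2, the lowest for Twist2 and some for Snai2 are lower bounds. Among the 11, removal of stromal cells by collagens only, each cell counted once and removal of shared barcodes were not planned. These unplanned settings gave both the lowest and the highest value for Twist2. The value of 22.1 for Trp63 came with class thresholds of 20 counts, which by construction pass basal cells of 10 to 19 counts with luminal keratins to LP. With each cell counted once at 200 UMIs, an alternative chosen after seeing the data, the ratio of sorted to unsorted level was 1.16 for Trp63, 0.94 for Snai2 and 1.18 for Tbx2, where 8 sorted and 2 unsorted cells held a count, and the cause was not tested. The upper bound of Trp63 in collagen over basal cells changed from 1.05 to 0.98 without mitochondrial, ribosomal and class genes in the total, and being a bound it gives no direction. No paired analysis was possible because each group is 1 library and no result comes from a test. No ratio could be formed for Myocd, nor for Zeb1 against luminal or collagen cells. Depth limits every statement on Tbx2, Twist2, Zeb1 and Myocd, and absence of a count is not absence of the RNA.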
